A study of Mus musculus with 4 samples.

Results

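The interval from 21700000 to 24000000 bp on mouse chromosome 13 (build mm9) holds the major cluster of replication-dependent histone genes. Its members here were all peaks of the deposited lists whose start lies in these 2.30 Mb: 89 of 109740 peaks called in proliferating cells and 654 of 699290 peaks called in arrested cells. The limits are fixed positions, and no value of a peak enters the rule, though the interval was chosen with earlier results of these data known. The peaks came from chromatin immunoprecipitation followed by sequencing (ChIP-seq) with several antibodies to pRb, the retinoblastoma protein (whether they were pooled is not stated), in mouse embryonic fibroblasts (MEFs). These are primary cells, here of strain C57BL/6, made from E13.5 embryos and grown to passage 4. Proliferating cells grew asynchronously in medium with 10% serum, and arrested cells were kept in 0.1% serum for 72 hours. Both libraries, like the 2 inputs that were not analysed here, are labelled KO, and no label names the deleted gene, so it is not known from the sources used here whether the cells still had pRb. The peaks are therefore given as calls and not as sites bound by that protein. Each growth state had 1 library, which leaves no spread between cultures against which a difference could be tested.

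Replication-dependent histone genes supply the core histones H2A, H2B, H3 and H4 and the linker histone H1, which package new DNA while it is copied. They are switched on together as cells enter S phase and are shut down in cells that stop dividing. In proliferating cells their transcripts are made in the histone locus body, a nuclear compartment that forms at these clusters. pRb holds back E2F, a family of transcription factors that drive genes needed for S phase, and phosphorylation of pRb lifts this block. Vomeronasal type 1 receptors (Vmn1r genes) are pheromone receptors of the vomeronasal organ. They belong to large, repeatedly duplicated families and are silent in most other tissues.

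In the RefSeq gene table for build GRCm38.p6, the cluster runs from histone genes through vomeronasal receptor genes to a second run of histone genes. Only the order of genes was taken from that table, because its coordinates belong to another build than the peaks. Before the receptor genes lie 23 protein-coding histone genes, with 7 for H2A, 8 for H2B, 2 for H3, 5 for H4 and 1 for H1. After them lie 31, with 6 for H2A, 7 for H2B, 7 for H3, 6 for H4 and 5 for H1. The stretch between holds 36 protein-coding Vmn1r genes and 39 Vmn1r pseudogenes, and no histone gene. Genes for transfer RNAs accompany the histone genes, 32 in the first run and 45 in the last, and 0 were listed among the receptor genes. The interval was accordingly described in 3 blocks: a proximal end up to 22100000 bp, a middle from there to 23500000 bp and a distal end beyond it. These limits are round numbers set by hand, and the gene content of the blocks in mm9 was not checked. No mm9 annotation was used, so no peak was assigned to a gene.

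Promoter sequences of the histone and receptor genes differ in the elements they carry. The RefSeq promoter table (GRCm38.p6) held 52 promoters for 51 of the 54 histone genes and 33 promoters for 33 of the 36 receptor genes, each with 250 bases before and 50 after the start. Both strands were searched for E2F sites (TTTCGCGC, TTTGGCGC or TTTCCCGC), the CCAAT box (CCAAT), the TATA box (TATAAA) and the octamer (ATTTGCAT), an element known from H2B promoters. An E2F match was present in 10 of the 52 histone promoters (19.2%), in 0 of the 33 receptor promoters and in 1.84% of the 32851 promoters of the whole table. The 10 were 5 of 13 H2A, 4 of 15 H2B and 1 of 11 H4 promoters. The CCAAT box was found in 84.6% of histone promoters, in 36.4% of receptor promoters and in 37.4% of all promoters. By class, it was found in every H1, H2A, H2B and H3 promoter (6, 13, 15 and 7) and in 3 of 11 H4 promoters. Corresponding shares were 59.6%, 27.3% and 13.6% for the TATA box, and 21.2%, 9.09% and 1.74% for the octamer, whose 11 matches were in 6 H2B and 5 H2A promoters. Of the 52 histone promoters, 20 overlapped the promoter of another histone gene, so a match in the overlap was counted in both. A match is a string of letters and not a bound site.

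One promoter of each histone class is shown beside the first receptor gene of the stretch, as the 150 bases that end at the start site, 5′ to 3′ on the strand of the gene, with matches to the searched motifs on either strand in capitals (ATTGG is CCAAT on the other strand). Within a class, the gene with most kinds of motif was taken. H1f5 encodes a linker histone, H2ac22 an H2A, H2bc8 an H2B, H3c10 an H3 and H4c4 an H4, and Vmn1r188 encodes a vomeronasal receptor. The mm9 sequence under the peaks was not used here.
H1f5: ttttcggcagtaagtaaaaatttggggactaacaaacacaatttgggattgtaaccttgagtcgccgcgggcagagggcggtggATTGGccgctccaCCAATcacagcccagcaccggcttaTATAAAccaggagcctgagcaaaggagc
H2ac22: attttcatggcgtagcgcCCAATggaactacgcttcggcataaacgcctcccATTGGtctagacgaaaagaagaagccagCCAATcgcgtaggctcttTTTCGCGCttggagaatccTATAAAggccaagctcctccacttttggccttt
H2bc8: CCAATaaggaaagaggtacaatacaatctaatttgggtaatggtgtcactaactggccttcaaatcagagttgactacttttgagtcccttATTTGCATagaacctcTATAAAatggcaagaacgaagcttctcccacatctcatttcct
H3c10: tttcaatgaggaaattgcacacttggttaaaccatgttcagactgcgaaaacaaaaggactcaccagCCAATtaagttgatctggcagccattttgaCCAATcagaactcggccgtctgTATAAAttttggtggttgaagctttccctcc
H4c4: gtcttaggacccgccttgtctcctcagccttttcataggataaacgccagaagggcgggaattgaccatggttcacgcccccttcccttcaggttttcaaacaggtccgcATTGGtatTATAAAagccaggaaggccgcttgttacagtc
Vmn1r188: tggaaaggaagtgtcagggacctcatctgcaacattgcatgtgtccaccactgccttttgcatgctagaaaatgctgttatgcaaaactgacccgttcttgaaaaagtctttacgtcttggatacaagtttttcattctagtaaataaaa
The H2ac22 promoter carries CCAAT boxes, the E2F letters and a TATA box in that order towards the start. H2bc8 has the octamer just upstream of its TATA box. No capital appears in the 150 bases of Vmn1r188, which was taken by its order and not by its motifs. The examples are therefore not a like comparison: 36.4% of receptor promoters had a CCAAT box and 27.3% a TATA box.

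By number of peaks, the histone interval was an ordinary part of chromosome 13 in arrested cells and at the sparse side in proliferating cells. Proliferating cells had 38.7 peaks per Mb in it (95% Poisson interval 31.1 to 47.6), against 45.0 per Mb on the rest of the chromosome, a ratio of 0.861 with an interval of 0.690 to 1.06. Arrested cells had 284 per Mb (263 to 307) against 275, a ratio of 1.03 with an interval of 0.955 to 1.12. Both ratios thus lay within counting error of 1. The interval makes up 1.96% of the chromosome between its outermost peaks, and it held 1.69% of the proliferating and 2.02% of the arrested peaks of chromosome 13. Of 49 other consecutive stretches of 2.30 Mb on the chromosome, 40 had more proliferating peaks than the interval and 9 had fewer; their median was 105 and their range 66 to 136. For arrested peaks 15 had more and 31 had fewer, around a median of 645. The stretch just before the interval held 90 proliferating and 710 arrested peaks, and the one just after held 117 and 654. Arrested peaks outnumbered proliferating ones by 7.35 to 1 in the interval, by 6.14 to 1 on the whole chromosome and by 6.37 to 1 in the whole lists. Intervals given here cover counting error only, and peaks and windows are not replicates.

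In proliferating cells the fullest bins of the interval lay near the borders between the end blocks and the middle. The 4 bins of 100 kb in the proximal end held 1, 2, 7 and 6 peaks. The 5 bins of the distal end held 9, 7, 4, 3 and 1. The bin with most peaks was thus the first of the distal end, and the outermost bin on each side had 1 peak. The next fullest bins started at 21.9, 23.3 and 23.6 Mb, with 7 peaks each. The 14 bins of the middle held 2 to 7 peaks, and 9 of them lay below the median of 4 for chromosome 13, with 3 above it. Elsewhere on the chromosome 36.3% of bins lay below 4 and 45.1% above it. Of the 1150 other bins of the chromosome, 5.39% had at least 9 peaks and 18.3% at least 7, so none of these counts was rare there. At most 2 peaks, which is 50% of the median, were found in 6 of the 23 bins (26.1%), against 20.2% of all 1173 bins of chromosome 13. At least 6 peaks, or 150% of the median, were found in 5 of the 23 bins, against 30.5%.

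In arrested cells the fullest bin lay inside the middle and each proximal bin lay below the chromosome median. The proximal bins held 25, 25, 18 and 23 peaks, where the chromosome median was 28 and 47.3% of the other bins lay below it. Fewer peaks than in these bins were held by 28.3%, 28.3%, 4.26% and 17.6% of the other bins. The density of the proximal end relative to the rest of the chromosome was 0.826, with an interval of 0.665 to 1.02 that holds 1. The distal bins held 28, 27, 25, 20 and 37, with 1 above the median. In the middle, bins ranged from 21 to 43 peaks, and 10 of 14 exceeded the median, as did 45.3% of the other bins of the chromosome. The fullest bin ran from 23.2 to 23.3 Mb, inside the middle, with 43 peaks covering 11.6% of its bases, and 5 of the 1150 other bins of the chromosome held as many or more. Next were the bins at 23.1 and 23.9 Mb with 37 peaks each, reached or passed in 65 other bins. The bin with fewest arrested peaks, 18 at 21.9 Mb, was among the fullest in proliferating cells. The bin at 23.9 Mb, with 37 arrested peaks and 1 proliferating peak, showed the reverse. The next sparsest arrested bins, at 23.8 and 23.4 Mb, had 20 and 21 peaks. Of the 23 bins 0 had 14 peaks or fewer (50% of the median), against 2.13% of all bins of the chromosome, and 1 bin (4.35%) had at least 42, against 0.853%. Bins scattered only slightly more than counting alone gives: their standard deviation was 5.95 in arrested cells, where a Poisson scatter would give 5.33, and 2.12 against 1.97 in proliferating cells.

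**Figure D1:**
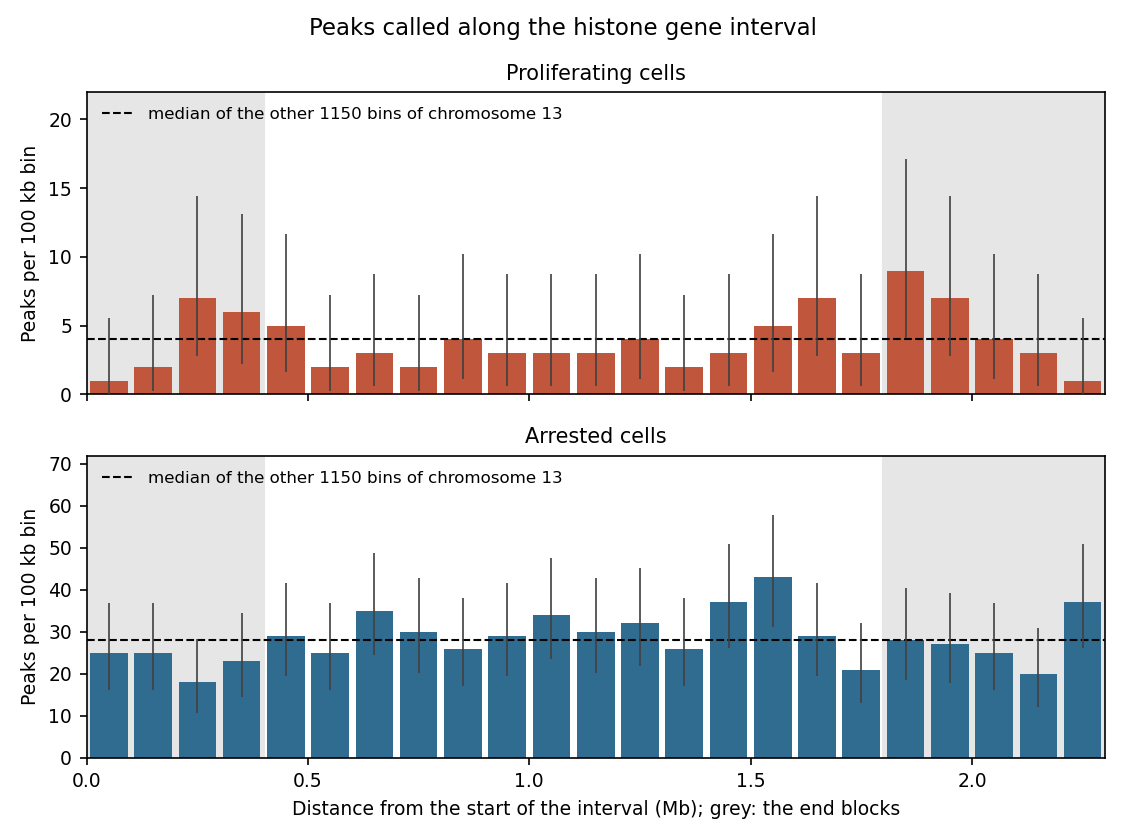
Peaks per 100 kb bin against distance from the start of the interval in Mb, for proliferating cells (upper) and arrested cells (lower). Lines are 95% Poisson intervals, dashes the median of the other 1150 bins of chromosome 13 (4 and 28), and grey areas the end blocks: proliferating bins reach 9 in the distal end, and arrested bins reach 43 in the middle.

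Across the 23 bins the lists showed little relation, with Spearman's rho of -0.08 and Pearson's r of -0.14. Over the 1145 other bins of the chromosome that held an arrested peak, these were 0.08 and 0.12. The bins of a list come from 1 library, and neighbouring bins are not independent.

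**Figure D2:**
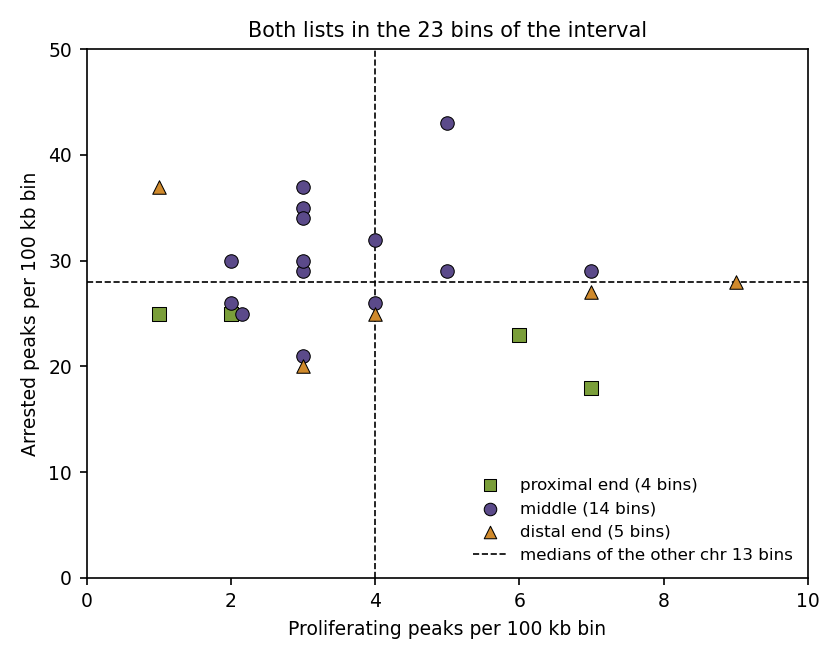
Arrested against proliferating peaks in each of the 23 bins of 100 kb, with a symbol per block and dashes at the medians of the other bins of chromosome 13 (points with the same values are set slightly apart). The 4 proximal bins lie below the arrested median of 28 and 10 of the 14 middle bins lie above it. Of the other bins of the chromosome, 47.3% lie below 28 and 45.3% above. The 23 points follow no line (rho of -0.08).

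With peaks divided at 300 bp, the higher density of the middle in arrested cells was seen mainly among wide peaks. All arrested peaks together numbered 304 per Mb in the middle (276 to 335), 228 per Mb in the proximal end (183 to 279) and 274 in the distal end (230 to 324). The middle exceeded both ends together by a ratio of 1.20, with an interval of 1.02 to 1.42. Against the proximal end alone it was 1.34 (1.06 to 1.70). Against the distal end alone it was 1.11 (0.914 to 1.36), and in the upper 50% of the list by score 1.04 (0.830 to 1.31), both with intervals that hold 1. Taken apart by width, peaks of at least 300 bp numbered 139 in the middle, or 99.3 per Mb (83.5 to 117), and 46 in both ends, or 51.1 per Mb (37.4 to 68.2). Their ratio was 1.94, with an interval of 1.38 to 2.77; in the upper 50% of the list by score it was 1.29 (0.670 to 2.57). Peaks under 300 bp had similar densities, at 205 per Mb in the middle and 202 in both ends together (178 proximal, 222 distal). The ratio of these narrower peaks was 1.01, with an interval of 0.839 to 1.23 that also holds the 1.20 of all peaks. The rest of chromosome 13 had 67.8 wide peaks per Mb, between the middle and the ends, and 207 narrower ones. The proximal end alone had 20 wide peaks (30.5 to 77.2 per Mb) and the distal end 26 (34.0 to 76.2 per Mb), so the densities of the ends were close. The limit of 300 bp was chosen after the peaks had been seen. At a limit of 400 bp the ratio was 1.63 (1.02 to 2.68) for wider peaks and 1.15 (0.962 to 1.37) for narrower ones. At 250 bp these were 1.82 (1.36 to 2.48) and 0.968 (0.792 to 1.19).

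Wide arrested peaks were spread along the middle, though not evenly. Bins of the middle held 5 to 15 of them, with a median of 10.5, and bins of the ends held 3 to 9, with a median of 5; the other bins of the chromosome had a median of 6 and quartiles of 5 and 8. The highest number, 15, fell in the bin at 22.7 Mb, and 20 of the 1150 other bins held as many. The bins at 23.1 and 23.2 Mb followed with 13 each. Of 82 other consecutive stretches of 1.40 Mb on the chromosome, 2 held at least the 139 wide peaks of the middle, and their median was 93. For peaks under 300 bp, 60 of the 82 held at least the 287 of the middle. In the whole interval 185 of 654 arrested peaks were wide (28.3%, Wilson interval 25.0 to 31.9), against 24.5% of the whole arrested list. In the middle it was 32.6% (28.3 to 37.2), and in the ends 20.2% (15.5 to 25.9). Proliferating cells had 1 such peak among their 89 (1.12%), against 1.02% of the whole proliferating list.

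**Figure D3:**
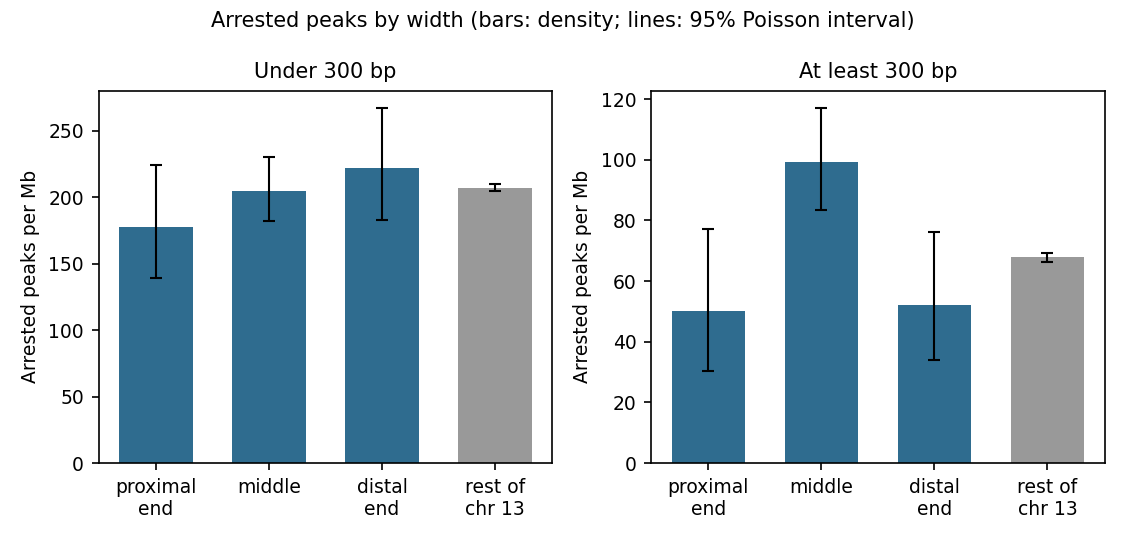
Arrested peaks per Mb in the proximal end, the middle, the distal end and the rest of chromosome 13, for peaks under 300 bp (left) and of at least 300 bp (right), with 95% Poisson intervals as lines. Wide peaks reach 99.3 per Mb in the middle, against 51.1 in both ends together and 67.8 elsewhere, while peaks under 300 bp are about as dense in the middle (205) as elsewhere (207).

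The wide peaks of the middle had low scores, as wide peaks did elsewhere. Scores are values that the authors assigned to peaks; they start at 20 in both lists, their scale is not stated, and they are used here only within a list. Arrested wide peaks of the middle had a median score of 51.57, close to the 58.37 of wide peaks on the rest of the chromosome, and 68.3% of them lay at or below 71.01, the lower quartile of the list, against 60.9% of wide peaks in the ends and 60.5% on the rest of the chromosome. Peaks under 300 bp had a median of 106.34 in the middle and the same in the ends, against 115.44 on the rest of the chromosome. Of these narrower peaks, 19.9% in the middle lay at or below 71.01. The share was 11.3% in the proximal end, 10.8% in the distal end and 13.8% on the rest of the chromosome. The larger share of low scores in the middle was thus not confined to wide peaks. Of all arrested peaks of the middle, 35.7% scored at or below the lower quartile, against 21.1% in the ends and 25.3% elsewhere on the chromosome. The covered share of bases was highest in the middle. Arrested peaks covered 7.88% of the middle, 5.29% of the proximal end, 5.99% of the distal end and 6.35% of the rest of chromosome 13.

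Differences between the blocks in proliferating cells lay within counting error. The middle held 49 peaks, or 35.0 per Mb (25.9 to 46.3), the proximal end 16, or 40.0 per Mb (22.9 to 65.0), and the distal end 24, or 48.0 per Mb (30.8 to 71.4). The ratio of the middle to both ends was 0.787, with an interval of 0.508 to 1.23, which holds 1. With the block limits moved 100 kb outwards it was 1.12 (0.695 to 1.86), on the other side of 1. Median widths were close, at 155 bp in the middle, 146 bp in the proximal end and 154 bp in the distal end, and 154 bp on the rest of the chromosome.

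Median scores in the interval were close to those of the rest of chromosome 13, and arrested peaks held more low scores. Proliferating peaks had a median score of 25.22 (quartiles 22.24 and 29.19), against 24.36 on the rest of chromosome 13, and 19 of 89 (21.3%) were at or above the upper quartile of the list, 30.43, where 25.0% of the list lies. Arrested peaks had a median of 97.45 (quartiles 64.12 and 138.97). The rest of the chromosome had the same median with higher quartiles, 71.01 and 151.92. The score 97.45 is a common one, carried by 42 arrested peaks of the interval and by 5.86% of the list. Of the arrested peaks of the interval, 146 (22.3%) were at or above the upper quartile of 152.53, against 25.0% of the list. At or below the lower quartile were 200 (30.6%), against 25.1% of the list and 25.3% of the rest of the chromosome. Proliferating peaks at or below the lower quartile made up 23.6%, against 25.6% of the list. The share at or above the upper quartile ran by block from 31.2% in the proximal end to 16.7% in the distal end for proliferating cells, over 16 and 24 peaks, and from 20.9% to 24.8% for arrested cells.

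In proliferating cells the highest score of the interval stood out on chromosome 13, and the next ones less so. The highest belonged to a 79 bp peak in the middle block, close to the distal end (23458768 to 23458846). Its score of 79.11 was the third highest on the chromosome. It was also among the narrowest peaks there, with width rank 5201 of 5259 counted from the widest. The second was a 302 bp peak in the distal end (23590471 to 23590772, score 59.56), rank 28 on the chromosome. This peak was also the widest proliferating peak of the interval. Then 4 peaks shared the score 49.28, which is rank 97 on the chromosome and is carried by 1.23% of the whole list. Of these, 3 are named by the rule: 21951939 to 21952028 and 22025631 to 22025748 in the proximal end, and 22448050 to 22448127 in the middle. None of these 5 overlapped an arrested peak. The next widest peaks were 260 bp at 23520151, 254 bp at 23514262, 251 bp at 22051775 and 248 bp at 23849430, all in the end blocks. They carried scores from 22.44 to 34.15.

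In arrested cells the highest score lay in the proximal end. It was 663.54 for a 200 bp peak from 22022546 to 22022745, the sixth highest on chromosome 13 and 179 in the order of the whole list. The proliferating peak at 22025631 named above lies in the same 100 kb bin, and they do not overlap. The distal end held the next, a 155 bp peak from 23668546 to 23668700 with a score of 501.94. Then came 407.10 for peaks at 23106657 (156 bp, middle) and 23793848 (214 bp, distal end), and 369.28 for a 149 bp peak at 21762722 in the proximal end, which shares its score with 1 other peak. The widest arrested peaks were others: 835 bp at 23251275, 784 bp at 23439519 and 676 bp at 23100992 in the middle, and 808 bp at 21783654 and 662 bp at 21770860 in the proximal end. Their scores ran from 75.45 to 131.78, around the median of 97.45 and far below the top. None of these 10 peaks overlapped a proliferating one.

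**Figure D4:**
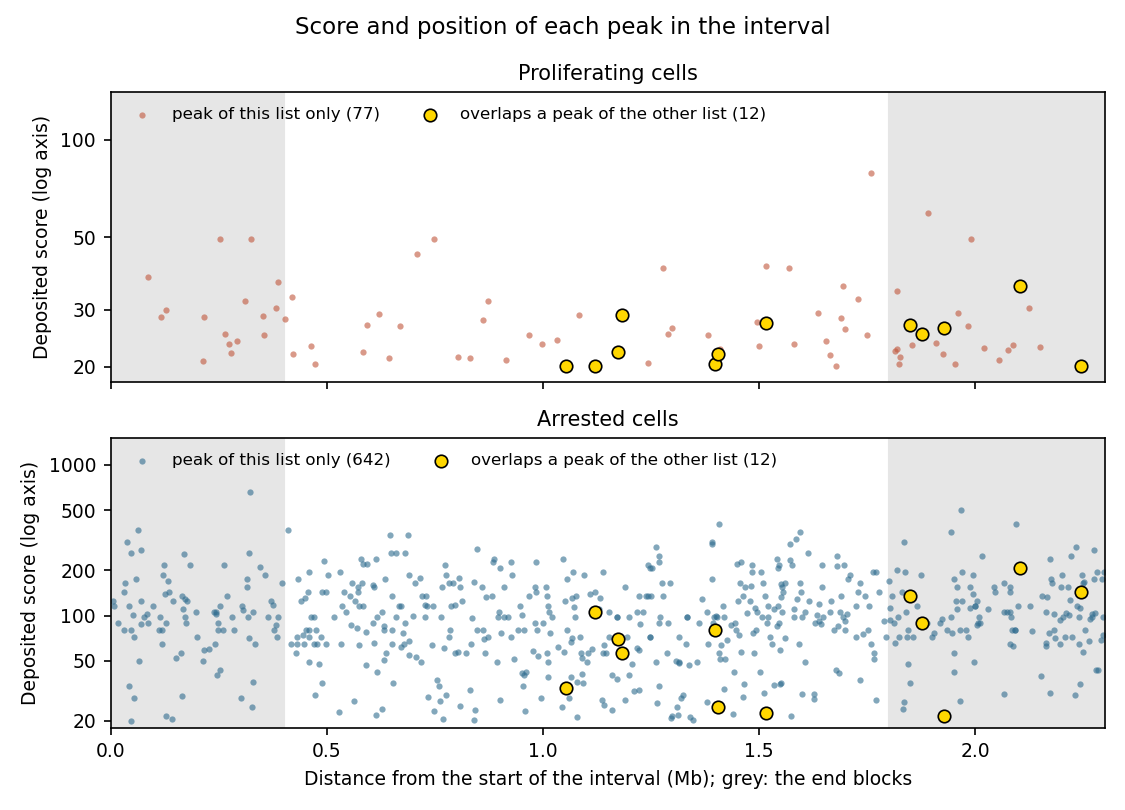
Deposited score (log axis) of each peak of the interval against distance from its start in Mb, for proliferating cells (upper) and arrested cells (lower); yellow points overlap a peak of the other list, and grey areas are the end blocks. The 12 overlapping peaks lie in the middle and the distal end and 0 lie in the proximal end; the arrested high point in the proximal end is the 663.54 peak.

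The shares of peaks called in both growth states were close to those of the whole lists, and no such site lay in the proximal end. The share that random placement of the peaks would give was not computed. At 12 places a proliferating peak overlapped an arrested one by at least 1 bp. That is 13.48% of the 89 proliferating peaks (Wilson interval 7.88 to 22.104), against 11.6% of the whole proliferating list, and 1.83% of the 654 arrested peaks (1.05 to 3.18), against 1.82% of the whole arrested list. The middle had 7 of the 12, or 14.3% of its proliferating peaks (7.10 to 26.7), and the distal end 5, or 20.8% (9.24 to 40.5). In the proximal end 0 of 16 proliferating peaks overlapped, a share whose upper Wilson limit is 19.4% (3 counts of the 16 would be 18.8%). The shares of the 3 blocks could not be told apart at these numbers.

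All 7 shared sites of the middle lay between 22.7 and 23.3 Mb. Their proliferating peaks started at 22753015, 22821736, 22872777, 22884127, 23097929, 23104648 and 23216366, with scores from 20.06 to 28.83. The matching arrested peaks measured 216 to 516 bp and scored 22.46 to 105.84. At 4 of the 7 the arrested peak contained the proliferating one whole. Of the 7 arrested peaks, 4 were at least 300 bp wide, against 139 of all 426 arrested peaks of the middle. In the distal end 1 of the 5 was, against 26 of all 137 there. These 5 had widths of 163, 159, 429, 237 and 163 bp and scores of 134.28, 88.79, 21.68, 205.84 and 143.99. The matching proliferating peaks started at 23550425, 23578309, 23628644, 23804456 and 23945985. A wider peak offers more bases to overlap and can more easily contain a narrow one. The counts by width and containment are therefore not read as a trait of shared sites. Among all 12, the site with the highest proliferating score was the one at 23804456 to 23804654, with 35.52 there and 205.84 in arrested cells, rank 13 of the 89 and 61 of the 654. At 2 sites of the distal end both peaks had nearly the same extent. The shared 140 bp at 23578309 to 23578476 made up 83.3% of the proliferating and 88.1% of the arrested peak, and the shared 135 bp at 23550425 to 23550579 made up 87.1% and 82.8%.

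The peaks nearest to the limits of the interval were as follows. In proliferating cells the first peak inside started at 21787269 (score 37.83) and the last before the interval at 21684102 (28.06); at the other limit the last inside started at 23945985 (20.06) and the first beyond at 24028541 (26.66). In arrested cells the corresponding starts were 21705075 (124.76), 21698735 (97.45), 23997151 (195.13) and 24002731 (332.36).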

How the data were processed

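Peak lists were available for the pRb immunoprecipitates of proliferating and arrested cells, 1 library each; the 2 inputs were not analysed here. The submitters' processing notes list bedtools, HOMER, MACS2, Bowtie2 and build mm9, without roles or settings; whether inputs served as controls is not stated. Each deposited list gives chromosome, start, end, name and the authors' score on an unstated scale. The lists hold no read counts, so depth is unknown. Samples were grouped by title.

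From the lists, peaks were placed by their start, counted in bins of 100 kb, and matched between lists by at least 1 shared bp. Starts are written 1-based. Densities carry exact Poisson intervals, ratios exact conditional binomial intervals and shares Wilson intervals, all at 95%. No test between conditions was possible. The density and overlap code was tested on simulated data. Named peaks are the 5 highest scores and 5 widest in each list, the highest of each block and every shared site; named bins are the 3 fullest and 3 sparsest. Bins tied with the third are named in part. The interval, its blocks and these rules were chosen with earlier results of these data known. The motif search, the consecutive stretches and the width limit of 300 bp were added later. Comparisons planned for promoters and motifs under peaks were not run, for want of mm9 sequence. Python 3.11.15, numpy 2.4.6, pandas 2.3.3, SciPy 1.17.1 and matplotlib 3.10.9 were used. Alternatives were score limits, merging, midpoints, other block and interval limits, other bins, stricter overlaps and other backgrounds.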

Additional observations from a re-analysis of the deposited data

Results flagged for a closer look

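The contrast between the middle and the ends of the interval lay on opposite sides of 1 in the 2 growth states with the block limits used. The density of the middle relative to the ends was 0.787 in proliferating cells and 1.20 in arrested cells. The proliferating interval (0.508 to 1.23) holds both values, and the difference between the states was not tested, since each state had 1 library. With block limits moved 100 kb outwards the proliferating ratio was 1.12 (0.695 to 1.86), on the same side as the arrested one. The density of the whole interval relative to the rest of chromosome 13 also lay on opposite sides of 1, at 0.861 in proliferating and 1.03 in arrested cells. Both intervals (0.690 to 1.06 and 0.955 to 1.12) hold 1, and this difference was not tested either. The sides swapped in the upper 10% of each list by score, at 1.09 and 0.880, and the arrested ratio was 0.976 in the upper 50%.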

How the results depend on the processing

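Among 76 values from other settings, 64 fell inside the error interval of the value in the text (counts: within a factor of 1.5), 12 moved, and none turned a ratio whose interval excluded 1. Taking the upper 50% of each list by score left 49 proliferating and 335 arrested peaks in the interval, by construction. It brought the shares that overlap the other list to 4.08% and 0.597%, the median arrested width to 161 bp, and the ratio of wide arrested peaks between middle and ends to 1.29, with an interval of 0.670 to 2.57 that holds 1. With the upper 10%, the density of the interval relative to chromosome 13 was 1.09 in proliferating and 0.880 in arrested cells. Requiring 50% of both peaks gave shares of 4.49% and 0.612%, and 50% of the peak gave 0.612% of arrested peaks. Shares over the whole lists were not computed at these settings. A stricter overlap can only lower such a share, and the upper 50% leaves fewer partner peaks in the other list. The lower shares are therefore not read as a trait of the interval. With bins of 200 kb, 9.09% were at or under 50% of the median in proliferating cells. The cause of these moves was not tested. The arrested ratio of middle to ends, 1.20, was 1.04 in the upper 50% (0.830 to 1.31), 1.32 in the upper 10% (0.744 to 2.42) and 1.14 after merging within 1000 bp (0.942 to 1.38). It was 1.18 with block limits moved outwards (0.990 to 1.41) and 1.11 against the distal end alone (0.914 to 1.36). Each of these intervals holds 1. Against the proximal end alone it was 1.34 (1.06 to 1.70), without the outermost bins 1.28 (1.07 to 1.54) and with limits moved inwards 1.24 (1.06 to 1.45). These intervals lie above 1, as does that of peaks placed by midpoint (1.02 to 1.42). In proliferating cells moving the block limits outwards gave 1.12 in place of 0.787. Comparisons with 1 end alone, without the outermost bins and by width were chosen after seeing the data. No replicate could be left out. No paired analysis was possible because each group had 1 library. Without mm9 sequence, peaks at promoters and motifs under peaks were not analysed here.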

Other observations

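Proliferating peaks of the interval had a median distance to arrested peaks above that of the rest of the chromosome, with no test. The median distance from a proliferating peak to the nearest arrested peak was 1012 bp, with quartiles of 316 and 2481 bp, and 43 of the 89 lay within 1000 bp (48.3%), the 12 overlapping ones included. On the rest of chromosome 13 the median was 852 bp, with quartiles of 241 and 2004 bp that overlap those of the interval widely. There 54.3% lay within 1000 bp. The middle had a median of 878 bp, the proximal end 1272 bp and the distal end 1105 bp.

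The longest stretch without a proliferating peak ran over 112673 bp in the middle, from 22172195 to 22284867, and held 32 arrested peaks; chromosome 13 had 52 stretches at least that long. In arrested cells the longest stretch without a peak was 21821 bp in the distal end, from 23804586 to 23826406, and chromosome 13 had 94 at least that long. It held 1 proliferating peak, and it began at the end of the shared site with the highest proliferating score.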
